A study of Mus musculus with 28 samples.

Results

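The DNase I hypersensitive sites (DHSs) described here were called in wild-type (WT) CD4+ T cells given TGF-β plus IL-4 and in none of the other 3 cultures assayed. They were chosen by peak calls alone: the peaks of 4 DNase-seq lists were merged where they overlapped by at least 1 bp, and a merged region was kept when it held a peak of the WT TGF-β plus IL-4 list and of no other list. This rule kept 2418 of 50176 merged regions (4.82%), which were 7.14% of the 33880 DHSs of the WT TGF-β plus IL-4 list. The 4 lists came from replicate 3 of each genotype, 1 library per condition, so every count and share of regions is a description with no replicate check.

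Naive CD4+ CD62L+ T cells were isolated from spleen and lymph nodes of mice on the C57BL/6 background, aged 8 to 10 weeks and of both sexes. All cultures received plate-bound anti-CD3 and soluble anti-CD28, and control cultures received no further cytokine. In the study, Tgfbr1 f/f Ert2-cre+ mice were given tamoxifen, which activates the inducible Cre and so deletes TGF-β receptor I. The promoter that drives this Cre is not given in the sources used here. Knockout (KO) libraries are taken here to come from such mice. The study also lists Tgfbr1 f/f Cd4-cre+ mice, and which line gave the KO RNA-seq libraries is not stated. WT DNase-seq libraries are labelled oil-treated and KO DNase-seq libraries tamoxifen-treated, the RNA-seq titles name neither, and elsewhere in the study oil-treated mice of the floxed Cre genotype served as WT. The deletion and the tamoxifen cannot be told apart in these groups. For DNase-seq the cells were crosslinked with formaldehyde and digested with DNase I. RNA-seq of sorted cells by Smart-seq2 covered cultures with either cytokine, both or neither, for both genotypes, with 3 replicates per group, as RPKM (reads scaled by gene length and by the reads of the library).

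DNase I cuts where nucleosomes are displaced, so a DHS marks DNA that is open to transcription factors. TGF-β receptors phosphorylate SMAD2 and SMAD3, which enter the nucleus with SMAD4 and recognise the letters CAGAC, whereas IL-4 activates STAT6, whose sites hold TTC and GAA with 4 bases between them. In T cells stimulated through their antigen receptor, the combination of both cytokines directs differentiation to IL-9-producing Th9 cells. AP-1 factors, the dimers of FOS, JUN and BATF proteins, are activated by antigen receptor signaling and bind TGANTCA.

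To show what such regions look like, the 201 bases around the summits of 6 regions are printed from the plus strand of mm9. They were picked after their values were seen, as regions of high −log10 p or with both kinds of letters beside a gene described further on. Capitals mark CAGACA (or TGTCTG, the same letters on the other strand) and TTC and GAA parted by 4 bases. The region before Ntn5 was the strongest of all 2418. Those in Cux1, before Stat5a, near Irf4 and near Aqp3 held both kinds of letters, and the region near Ccr4, inside Glb1, held CAGACA.
Ntn5, chr7:52939099-52939299: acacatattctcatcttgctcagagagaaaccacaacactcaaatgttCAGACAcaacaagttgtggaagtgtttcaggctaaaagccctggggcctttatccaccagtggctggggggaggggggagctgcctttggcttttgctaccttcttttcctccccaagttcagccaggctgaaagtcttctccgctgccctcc
Cux1, chr5:137031675-137031875: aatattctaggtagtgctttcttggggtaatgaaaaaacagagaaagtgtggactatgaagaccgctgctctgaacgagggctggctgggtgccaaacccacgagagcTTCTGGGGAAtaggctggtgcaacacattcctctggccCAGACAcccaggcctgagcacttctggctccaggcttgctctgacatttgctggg
Ccr4, chr9:114371761-114371961: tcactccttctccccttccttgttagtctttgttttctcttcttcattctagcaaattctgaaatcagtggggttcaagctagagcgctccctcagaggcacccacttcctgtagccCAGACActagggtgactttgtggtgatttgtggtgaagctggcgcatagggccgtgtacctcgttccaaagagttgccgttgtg
Stat5a, chr11:100720298-100720498: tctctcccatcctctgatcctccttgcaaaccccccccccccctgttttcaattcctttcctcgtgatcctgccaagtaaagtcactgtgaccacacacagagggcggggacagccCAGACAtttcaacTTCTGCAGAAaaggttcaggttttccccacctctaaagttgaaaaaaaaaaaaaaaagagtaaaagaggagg
Irf4, chr13:30882151-30882351: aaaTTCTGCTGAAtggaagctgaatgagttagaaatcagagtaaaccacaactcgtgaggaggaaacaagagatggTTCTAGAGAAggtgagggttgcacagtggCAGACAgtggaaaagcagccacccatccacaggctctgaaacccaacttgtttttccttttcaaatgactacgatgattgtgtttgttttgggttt
Aqp3, chr4:41020575-41020775: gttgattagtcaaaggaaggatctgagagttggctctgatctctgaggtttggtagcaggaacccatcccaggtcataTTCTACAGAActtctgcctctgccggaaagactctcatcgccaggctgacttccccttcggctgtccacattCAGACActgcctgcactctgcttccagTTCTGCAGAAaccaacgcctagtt

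The members were weak DHSs. Their rank by −log10 p in the WT TGF-β plus IL-4 list had a median of 86.4% from the top, and the strongest stood at place 8509 (25.1%). Only 75 of 2418 ranked in the upper 50% of the list. The fold over local background had a median of 3.83 (1.49 to 7.17), and the −log10 p a median of 7.90 (4.12 to 27.04), against 15.7 for the DHSs of the list shared with another list. The tags stacked at a summit had a median of 20, against 33 for shared DHSs, and the regions were narrower, with a median width of 235 bp against 351 bp. The −log10 q was at least 5 in 1382 members (57.2%).

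Regions called in a single list were mostly weak in all 4 lists. The share of DHSs in the WT TGF-β plus IL-4 list that were found in no other list rose from 0 in the strongest 10% to 28.3% in the weakest 10%. The weakest 10% of the WT control list reached 58.6%, and 8931 DHSs (20.2%) of that list were found in no other. Such regions numbered 1758 (5.22%) for KO control and 858 (3.16%) for KO TGF-β plus IL-4. The background floor, the lowest number of tags expected by the peak caller, was 3.26 in WT TGF-β plus IL-4, 2.77 in WT control, 4.27 for KO control and 3.31 for KO TGF-β plus IL-4. Taken as a measure of depth, this put the other 3 libraries at 0.851, 1.31 and 1.02 times the WT TGF-β plus IL-4 library. The total number of tags per library is unknown. The longest list thus came from the library with the lowest floor, and the part of depth in these counts was not tested.

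**Figure D1:**
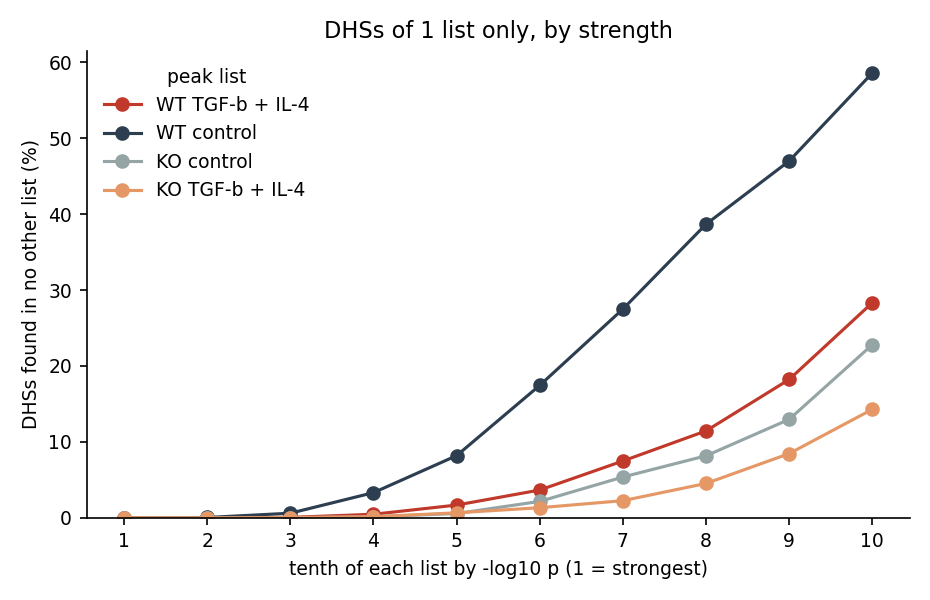
Share of the DHSs of each list found in no other list (y axis, %), in 10 equal steps of that list ordered by −log10 p (x axis, 1 is the strongest), with 1 library per list. The share in the WT TGF-β plus IL-4 list rose from 0 to 28.3%, below the WT control list (58.6%) and above both KO lists at the weak end.

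The rule uses peak calls, and regions on either side of its limit had similar strength. Among the DHSs left out, 42 overlapped a DHS of another list by at most 50 bp, the shortest by 2 bp, with a median −log10 p of 7.27. Among the members, 41 had a gap of at most 50 bp to another list, 3 of them touching it with 0 bp between, with a median −log10 p of 6.94. The gap from a member to the nearest DHS of any other list had a median of 3710 bp, and 428 members (17.7%) lay within 500 bp of such a DHS. The lists hold called peaks only, so signal under the calling threshold in the other 3 libraries at these positions was not analysed here.

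Most members lay away from gene starts. By the GENCODE annotation of mm9, 1120 (46.3%) were in introns, 851 (35.2%) between genes, 272 (11.2%) in exons and 175 (7.24%) at promoters, defined as 1000 bp before to 100 bp after a gene start. Promoters took 29.1% of the whole WT TGF-β plus IL-4 list, 5.54% of the regions only in WT control, and 9.84% and 9.44% of those only in the KO control and KO cytokine lists. A low promoter share was therefore shared by all 4 sets of single-list regions. The distance from a member to the nearest gene start had a median of 23.1 kb, against 11.8 kb over the list, and 1719 members (71.1%) lay within 50 kb of a start. The members were spread over all chromosomes but the mitochondrial DNA. Chromosome 11 held the most, 199 or 1.63 per Mb, and made up 8.23% of the members and 8.05% of the list. Within 10 kb of another member were 226 (9.35%).

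GC content did not set the members apart from other DHSs away from promoters. The 201 bases around their summits had a median GC content of 50.2%, and of 49.8% outside promoters, against 52.7% for the whole list and 50.2% for its DHSs outside promoters, whereas the regions only in WT control were poorer in GC, at 46.3%. Outside promoters, a CpG was absent from 201 members (8.96%), against 6.33% of the list.

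SMAD and STAT6 letters were more frequent in the members than in the list they came from. Of 27 consensus motifs searched on both strands within 100 bp of the summit, the STAT6-type letters had the highest ratio of members to list, with 272 members (11.2%) against 5.99% of the list. CAGACA stood in 660 members (27.3%), against 18.5% of the list and 21.8% of its DHSs outside promoters. The 8-letter palindrome GTCTAGAC, a pair of SMAD sites, was rare, in 12 members (0.496%) and 0.274% of the list. The RUNX letters TGTGGTT stood in 11.6% of members and 8.84% of the list, or 11.3% of its DHSs outside promoters. The STAT5-type letters, with a gap of 3 bases, differed less, at 8.44% and 6.995%. Letters of promoter factors were rarer in the members, such as GGGCGGG of KLF and SP factors (5.91% against 17.9%), and the 9 letters searched for CTCF stood in 0.993% against 2.33%. With promoters left out of both sets, GGGCGGG differed less, at 4.77% of members and 8.03% of the list. STAT6-type letters then stood in 11.6% and 7.03%. A match is a run of letters, not a shown binding site.

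The single-list regions of the other libraries had other letters. STAT6-type letters stood in 11.4% of the regions only in KO TGF-β plus IL-4, close to the members, and in 5.21% of those only in WT control and 3.53% of those only in KO control. CAGACA stood in 18.8%, 18.2% and 17.3% of the same 3 sets, all below the 27.3% of the members. The STAT6-type letters were thus frequent in single-list regions of both cultures with IL-4, and CAGACA in those of the WT culture with TGF-β. AP-1 letters went the other way, with 6.49% of members, 10.7% of the list, 25.9% of the regions only in WT control, with 10.1% and 13.5% of those only in the KO control and KO cytokine lists.

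**Figure D2:**
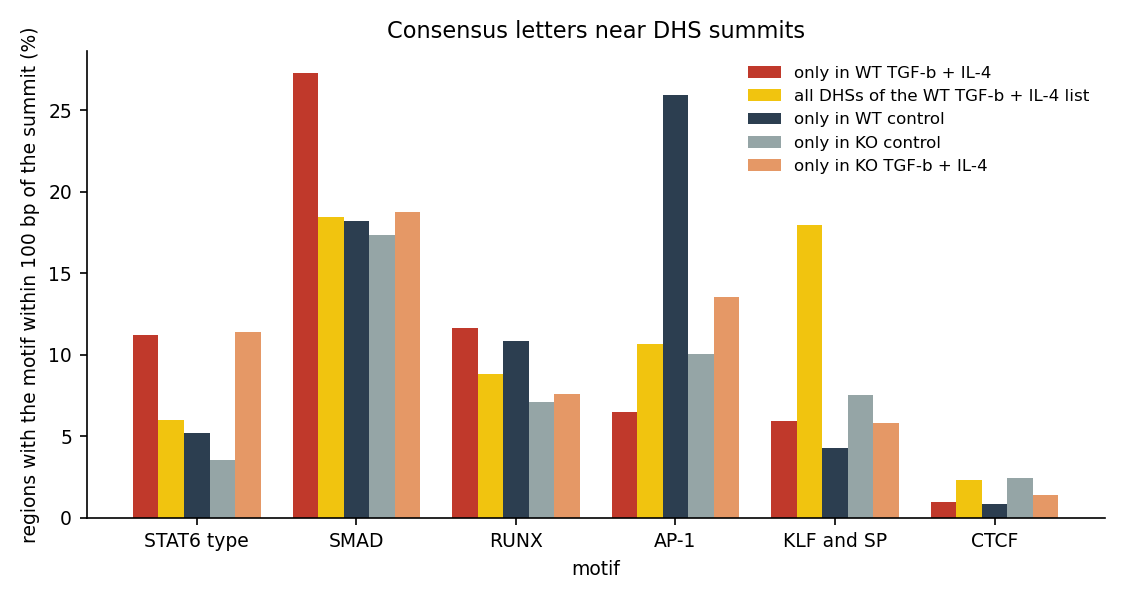
Share of regions (y axis, %) with the letters of 6 motifs (x axis) within 100 bp of the summit, for the members, the whole WT TGF-β plus IL-4 list and the regions found only in each other list. SMAD letters were most frequent in the members (27.3%), STAT6-type letters in the members and the regions only in KO TGF-β plus IL-4 (11.2% and 11.4%), and AP-1 letters in the regions only in WT control (25.9%).

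The strongest members held these letters most often. Among the 75 members ranked between 25 and 50% of the list, 40 (53.3%) had CAGACA and 13 (17.3%) had STAT6-type letters, against 18.9% and 6.21% of the other DHSs of the same ranks. Between 50 and 75%, 177 (32.8%) and 86 (16.0%) of 539 members had them, against 20.4% and 6.00%. In the weakest 25% the shares were 24.6% and 9.59%, against 19.3% and 5.70%. AP-1 letters were less frequent in members than in other DHSs of the same ranks in all 3 ranges, at 8% against 11.7%, 5.75% against 12.7% and 6.65% against 14.2%. The first range holds few members, and members and other DHSs of a range still differ in promoter share.

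**Figure D3:**
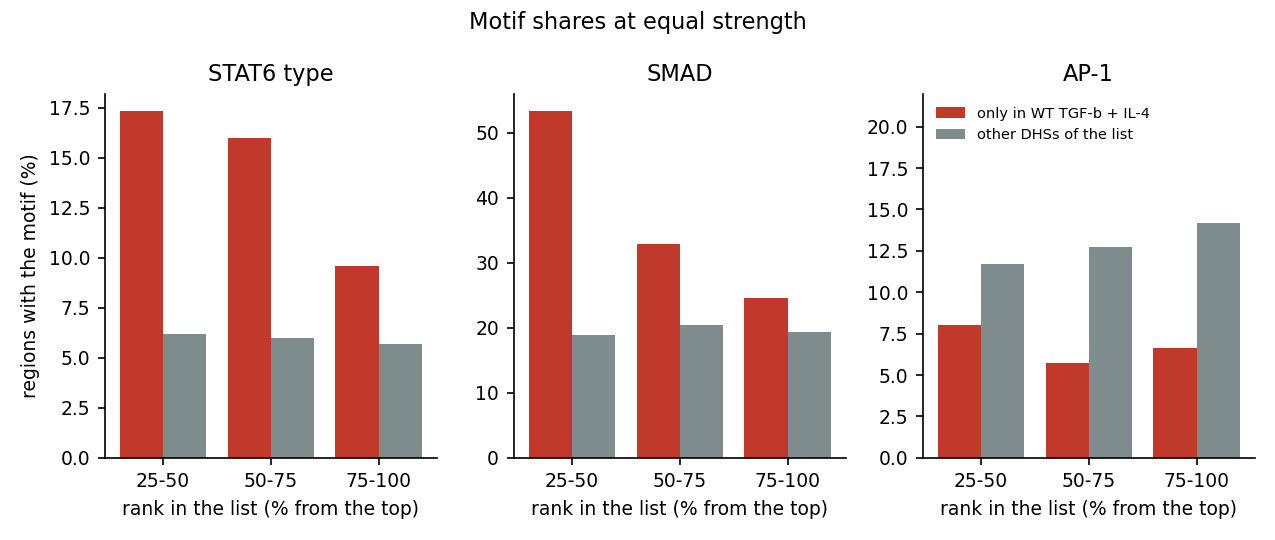
Share of regions (y axis, %, a separate scale in each panel) with STAT6-type, SMAD or AP-1 letters, for members and the other DHSs of the same list in 3 ranges of rank by −log10 p (x axis, % from the top; 75, 539 and 1804 members). The first 2 kinds of letters were more frequent in members in each range, and AP-1 letters less frequent.

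Part of the CAGACA share came from tandem runs of the unit CAGA, which are simple repeats. This unit 2 times in a row followed by C, the mark used for such a run, stood in 64 members (2.65%), against 0.862% of the list, and in 9 of the 75 members of ranks 25 to 50%. With these windows not counted, CAGACA remained in 596 members (24.6%), against 17.6% of the list, and in 31 of the 75 (41.3%), against 18.1% of the other DHSs of these ranks. Copies of CAGACA numbered at least 2 in 168 members (6.95%), against 2.81% of the list. The core CAGAC alone differed less, at 48.5% and 41.8%. The longer CAGACTG was near equal at 4.96% and 4.49%, and GGCGC, a GC-rich SMAD core found at many promoters, was rarer in the members, at 15.8% and 32.6%. The same letters written backwards gave a measure of base composition. Backward CAGACA, which still holds CAGAC, stood in 18.8% of members and 13.6% of the list, and backward STAT6-type letters in 7.28% and 5.92%, so that part of each difference was also present in backward letters.

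Both kinds of letters stood together in 89 members (3.68%), against 1.23% of the list. CAGACA stood in 32.7% of members with STAT6-type letters and in 26.6% of members without them, against 20.5% and 18.4% over the list. Without choosing a factor, all 6-letter words were counted in the 580 members of ranks 25 to 75% outside promoters and in the 13150 other such DHSs. Of the 726 words in at least 10% of these members, TAGACA (ratio 1.68) and CAGACA (ratio 1.64; 35.3% against 21.5%) came first, followed by CTAGAC (1.63). The lowest were GAGTCA (0.624) and GACTCA (0.566), which are parts of the AP-1 letters. The floor of 10% was set in the members alone, so the comparison itself decided which words were ranked. TAGACA and CTAGAC stood in 8.49% and 6.76% of the other DHSs and passed through the members only. Words rarer in members were left out, so these places are a description and no check of the motif shares.

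Before the RNA values are given, the columns of the RPKM table need a remark. For 8 WT libraries (replicates 1 and 3 of each culture) the pattern of genes at 0 could be compared with read counts listed under the library numbers. These covered 1991 to 3821 genes per library, not the whole RPKM table. Each library matched 1 column in at least 99.8% of the genes compared, with at most 85.8% for the next best column. In 6 of the 8 that column carried another heading. The libraries are therefore given by this match ("identified libraries"), with the columns as headed beside them, and the 4 unmatched WT columns were left out of the identified groups. The 12 KO columns had no such list and are described by their headings. Depth relative to the TGF-β plus IL-4 library headed replicate 3 ran from 0.794 to 1.66 over the 24 columns.

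Genes nearest to members were called higher in TGF-β plus IL-4 than in control more often than genes in general. The members had 1953 nearest genes, of which 1231 passed the filter on low values (an average of 1 RPKM or more in the libraries compared). In the identified libraries, 2 against 2, limma on log2(RPKM + 1) called 186 of them higher (15.1%) and 34 lower (2.76%) at an adjusted p under 0.01 and a fold over 1.5, beside 6.66% higher and 3.36% lower of all 9825 genes tested. The genes nearest to any DHS of the list stood near that background, with 581 of 8241 higher (7.05%). Some genes passed the filter through 1 of the 2 groups only, so that the change itself admitted them. Among genes with an average of 1 RPKM or more in both groups, 164 of 1183 nearest genes (13.9%) were called higher, beside 5.87% of all 9515. With the columns as headed, 3 against 3, limma called 0 of 1222 nearest genes higher and 0 lower, beside backgrounds of 0 and 0 (61 of 9780 genes at an unadjusted p under 0.05), so the result rests on the matching of libraries. By this match, the columns headed control hold 1 library each of control, TGF-β and IL-4, and those headed TGF-β plus IL-4 hold 1 each of TGF-β, IL-4 and both. The WT against KO comparison under TGF-β plus IL-4, as headed, also called 0 of 1218 higher and 0 lower, beside 0 and 0 (1821 of 9732 at an unadjusted p under 0.05), with the same 3 WT columns. Over all genes it called 326 without the WT column headed replicate 2, which matched an IL-4 library, and the 2 identified WT libraries against the KO columns gave 887 calls, but 24 and 26 with either left out. The whole table was tested, and regions and genes of 1 culture share their source, so these shares are counts and not independent trials.

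The share was larger for some classes of members. With 1 RPKM or more in both groups, it was 16.9% (75 of 445) for members within 10 kb of the gene start. It was 19.6% (20 of 102) for members at promoters, 20.96% (35 of 167) with STAT6-type letters and 16.7% (63 of 378) with CAGACA. Promoters were those of any annotated gene. The gene counted was the nearest with RPKM values and need not own that promoter. One such member, counted for Slc25a33, lay 41.7 kb from the start of that gene. By number of members per gene the share was 12.5% (120 of 961) with 1 member, 16.1% (25 of 155) with 2 and 28.4% (19 of 67) with 3 or more. No such split was made for the other sets of regions, so this rise is not shown to be particular to the members. Genes nearest to regions only in WT control, KO control and KO TGF-β plus IL-4 were called higher in 8.80%, 9.34% and 10.04%, so a share above background was not limited to the members. Over 9 fits of the identified libraries under other settings, with no such demand on both groups, the nearest genes' share was 2.16 to 2.94 times that of all genes. The nearest genes were moderately expressed, with a median of 2.91 RPKM in the TGF-β plus IL-4 libraries, against 3.93 for genes nearest to any DHS of the list and 0.175 for all genes of the table. In bulk RNA, fewer cells of a type and less RNA per cell cannot be told apart.

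**Figure D4:**
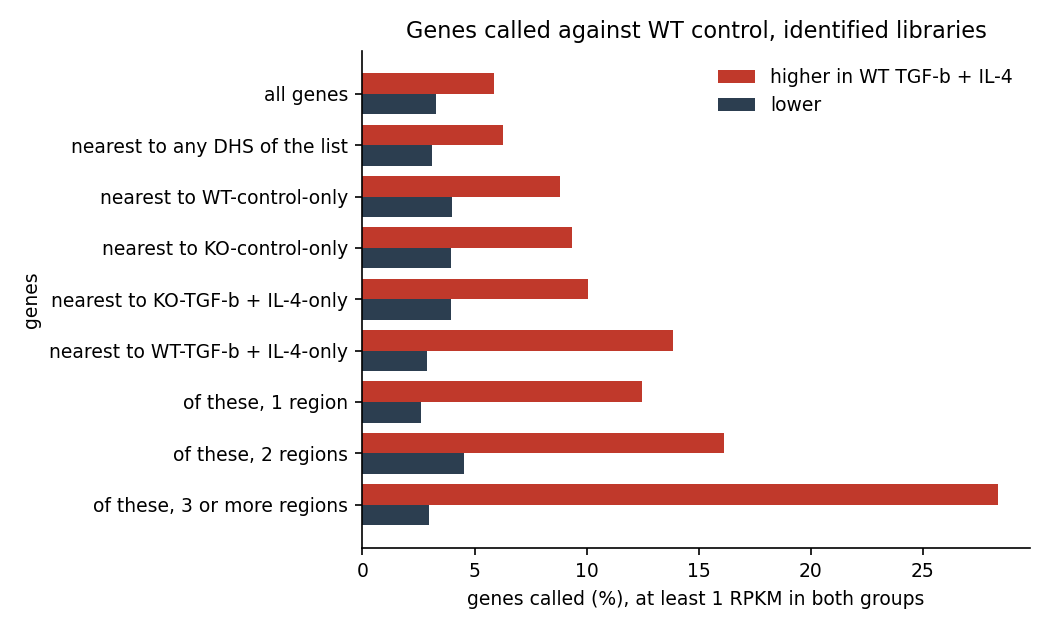
Share of the genes of at least 1 RPKM in both groups (x axis, %) called higher or lower in WT TGF-β plus IL-4 than in WT control in the identified libraries, for all genes and for the genes nearest to each set of regions (y axis). The share called higher was 13.9% for the members' nearest genes, beside 5.87% of all genes, and 28.4% for genes with 3 or more members.

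The strongest member, chr7:52938936-52939365 (mm9), had a −log10 p of 27.04 and a fold of 6.40. Its centre lay 0.634 kb before the start of Ntn5, inside the annotated span of Sec1. It was 10.6 kb from the Sec1 start and 21.3 kb from that of Dbp, which encodes a PAR bZIP transcription factor. The starts of Car11 (16.1 kb) and Fut2 (17.4 kb) were closer than that of Dbp. Both genes averaged under 1 RPKM in control and in TGF-β plus IL-4. Farther away, Rpl18 (31.7 kb), Sphk2 (34.2 kb) and Sult2b1 (75.8 kb) were tested and not called. Ntn5 was listed at 0 in both control libraries and at 0.542 and 0.598 RPKM in TGF-β plus IL-4. Sec1, a fucosyltransferase-family gene, stood at 0.0920 and 0.0445 RPKM in control, 1.45 and 1.28 with TGF-β, 0.115 and 0.116 with IL-4 and 3.38 and 3.90 with both. It was high only in the 2 cultures with TGF-β, and since it passed the filter through TGF-β plus IL-4 alone, no test is given. Dbp stood at 2.63 and 2.29 RPKM in control, 4.97 and 6.62 with TGF-β, 2.34 and 2.14 with IL-4 and 8.01 and 9.72 with both (log2 fold change 1.51 ± 0.11 (SE), limma adjusted p = 1.6e-05 with 2 libraries a group). Where such genes overlap, the reads of each cannot be told apart without strand.

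Of the next strongest members, the member in Cux1, a homeodomain repressor, lay in an intron 11.5 kb from the start (−log10 p 21.4). Cux1 RNA stood at 8.99 and 9.52 RPKM in control, 24.2 and 22.3 with TGF-β, 8.74 and 8.23 with IL-4 and 22.5 and 26.0 with both (log2 fold change 1.30 ± 0.09, limma adjusted p = 1.0e-05). Both cultures with TGF-β were high, and neither overlapped the cultures without it.

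The member near Ccr4 (−log10 p 20.0), the receptor for CCL17 and CCL22, lay 33.8 kb from the Ccr4 start in an intron of Glb1. Ccr4 stood at 10.7 and 10.6 RPKM in control, 22.6 and 21.2 with TGF-β, 23.1 and 23.8 with IL-4 and 38.6 and 40.6 with both (log2 fold change 1.80 ± 0.08, limma adjusted p = 4.3e-07). Each cytokine alone was above control, and the combination was highest.

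Cerk, which encodes ceramide kinase, held a member in an intron 4.09 kb from its start (−log10 p 23.3), and its RNA was called higher, from 1.94 and 2.32 RPKM in control to 4.31 and 4.48. Twsg1, a secreted modulator of BMP signaling, had a member 6.59 kb before its start (22.4) and rose from 9.97 and 11.4 RPKM to 19.8 and 22.3 (log2 fold change 0.92 ± 0.10, limma adjusted p = 0.00011). Sardh, a mitochondrial sarcosine dehydrogenase, had a member in an exon (21.2) and stood at 0.203 and 0.203 RPKM in control, 2.10 and 1.86 with TGF-β, 0.935 and 0.822 with IL-4 and 2.18 and 2.40 with both. All 3 genes stood above control in both TGF-β libraries, and Sardh also in both IL-4 libraries.

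The remaining strong members lay far from the genes nearest to them or near genes of low RNA. They were 216 kb from Srek1ip1 (22.9), 119 kb from Klf3 (22.4), 48.3 kb from the non-coding gene Gm16157 in an intron of Fam169b (21.8) and 19.2 kb from 1700016K19Rik (20.8). Srek1ip1 and Klf3 were not called, and the other nearest genes were under the filter. Fam169b itself stood at 11.2 and 10.7 RPKM in control and at 25.2 and 28.6 in TGF-β plus IL-4 (log2 fold change 1.22 ± 0.09, limma adjusted p = 1.1e-05). The window of this member holds a tandem run, with 9 copies of the SMAD letters.

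The TGF-β list holds genes of the pathway and genes that respond to TGF-β. By count, a larger share of its genes had a member near them than of the other lists. Of 33 annotated genes of the TGF-β list, 19 (57.6%) were nearest to a member within 100 kb. The shares were 38.1% of 42 T cell activation genes, 29.4% of 34 Th9 and Th2 genes and 18.2% of 11 IL-4 response genes. Beside them stood 8.47% of all annotated genes with an RPKM row and 12.4% of the genes tested. For any DHS of the WT TGF-β plus IL-4 list, the shares of the lists in this order were 97.0%, 97.6%, 88.2% and 72.7%. Those of annotated genes and genes tested were then 60.2% and 90.0%. Of the 14 TGF-β genes with a member and 1 RPKM or more in both groups, 8 were called higher and 0 lower, beside 12 of 23 over the whole list, a similar share, and 5.87% of all such genes. Itgae was also called but passed the filter through TGF-β plus IL-4 alone. The lists are short and were chosen with earlier results of these data known. These shares are counts with no test of the difference between lists.

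All 3 receptors of the pathway had members. Tgfbr2, which binds the ligand, had 2 members 39.2 and 55.8 kb before its start, with a −log10 p of 19.2 and 10.5. The window of the second held 8 copies of the SMAD letters. Tgfbr2 RNA stood at 10.1 and 9.47 RPKM in control, 17.5 and 15.5 with TGF-β, 9.43 and 7.90 with IL-4 and 20.4 and 24.1 with both (log2 fold change 1.10 ± 0.10, limma adjusted p = 3.8e-05). Tgfbr1, which phosphorylates the SMAD proteins, had 2 members 42.9 and 50.4 kb before its start within Col15a1. Tgfbr3, a co-receptor, had 3 members in its introns, the nearest 10.1 kb from the start, and was not called, at 8.69 and 9.59 RPKM in control and 10.9 and 13.7 in TGF-β plus IL-4.

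Repressors and feedback genes formed the next group. Ski, a repressor of SMAD-driven transcription, had a member in an intron 53.4 kb from its start (−log10 p 13.3), and stood at 3.64 and 3.81 RPKM in control, 7.94 and 8.21 with TGF-β, 3.92 and 3.75 with IL-4 and 11.97 and 12.5 with both (log2 fold change 1.48 ± 0.09, limma adjusted p = 4.4e-06). Its relative Skil had a member 12.02 kb before its start and was called higher, from 5.08 and 6.30 RPKM to 10.2 and 12.2. Pmepa1, a negative regulator of SMAD signaling, had 2 members and was called higher, from 2.33 and 2.68 RPKM to 7.09 and 6.57. Tgif1, with a member 0.182 kb before its start, was not called, at 17.9 and 21.1 RPKM in control and 21.8 and 20.3 in TGF-β plus IL-4. The ubiquitin ligase genes Smurf1 and Smurf2 held 2 and 1 intronic members and were under the filter.

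Targets of TGF-β in T cells showed the widest range. Nt5e encodes CD73, an enzyme that makes adenosine, and had a member at its start (0.103 kb, −log10 p 7.97). It stood at 1.12 and 1.25 RPKM in control, 19.5 and 19.8 with TGF-β, 0.717 and 0.730 with IL-4 and 18.3 and 21.2 with both (log2 fold change 3.25 ± 0.11, limma adjusted p = 8.0e-08). The cultures with TGF-β were far above those without it.

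Itgae encodes the integrin CD103 and had a member in an intron 17.8 kb from its start (−log10 p 15.9). It stood at 0.363 and 0.196 RPKM in control, 4.10 and 3.98 with TGF-β, 0.429 and 0.392 with IL-4 and 7.001 and 8.76 with both, so that the cultures with TGF-β stood far above the others; no test is given, for the reason above. Lrrc32, which encodes the docking protein of latent TGF-β, had a member 3.74 kb before its start and was called higher, from 1.49 and 1.55 RPKM to 4.51 and 4.75. Runx1 had 4 members, 2 of them neighbours 179.3 and 179.6 kb before its start and both with STAT6-type letters, and was called higher, from 5.89 and 5.50 RPKM to 13.9 and 14.1. Runx3, Smad2, Itgav and Ctla4 also had members and were not called.

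**Figure D5:**
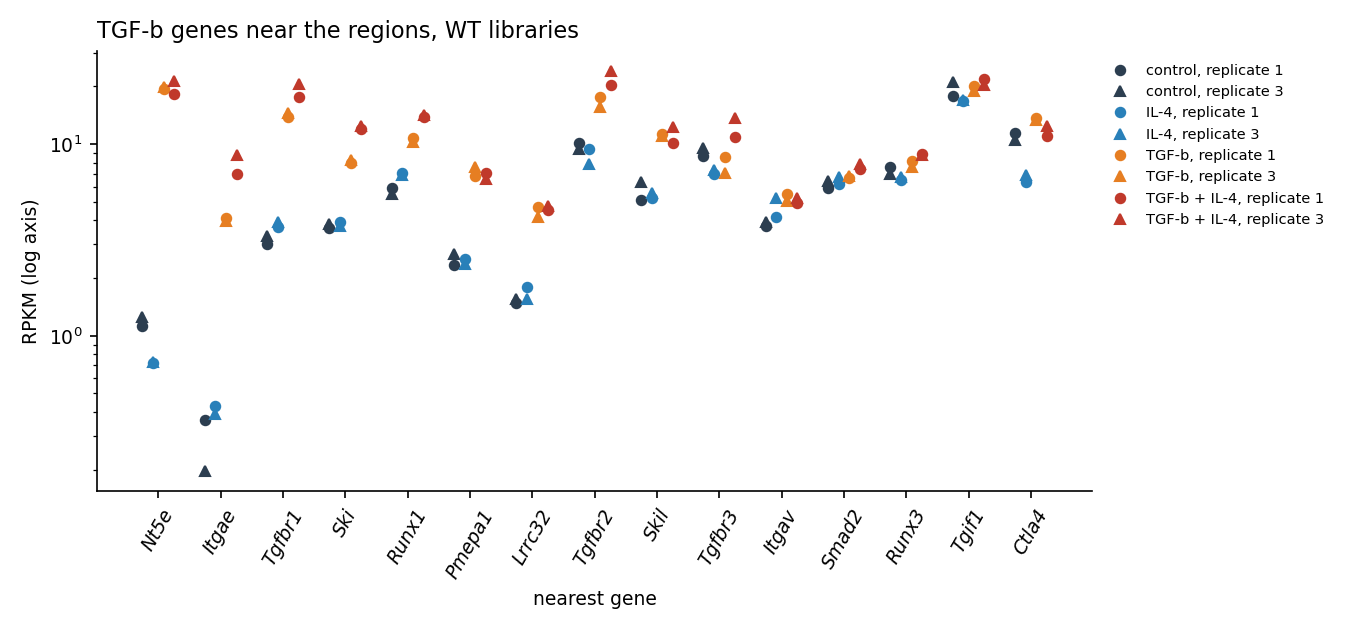
RPKM (y axis, log scale) of the TGF-β list genes nearest to a member within 100 kb that passed the filter (x axis), 1 point per identified WT library, with colour for the culture and shape for the replicate number. Nt5e and Itgae stood far higher in both cultures with TGF-β, and Tgif1, Smad2 and Ctla4 were not called.

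Th9 and Th2 genes with a member included STAT5 and IRF4, transcription factors used by Th9 cells. The member 0.278 kb before Stat5a (−log10 p 12.5) held both kinds of letters. Stat5a stood at 114 and 112 RPKM in control, 171 and 147 with TGF-β, 146 and 151 with IL-4 and 248 and 255 with both (log2 fold change 1.15 ± 0.06, limma adjusted p = 2.6e-06). Each cytokine alone was above control, and the combination stood above both. Stat5b, the neighbouring paralog, had 2 intronic members (−log10 p 14.5 and 8.75) and was called higher, from 40.9 and 42.7 RPKM to 87.0 and 91.7. Irf4 had a member 41.2 kb after its start with 2 STAT6-type matches and was called higher, from 63.2 and 60.9 RPKM to 98.5 and 108. At Il9, 1 member of low rank (90.3%) lay 13.4 kb away in an intron of Slc25a48. Il9 stood at 9.93 and 8.15 RPKM in control, 45.9 and 40.1 with TGF-β, 13.03 and 17.4 with IL-4 and 36.1 and 34.1 with both (log2 fold change 1.85 ± 0.10, limma adjusted p = 1.9e-06). It was thus highest with TGF-β alone in these libraries, an order that rests on the matching of libraries. The paper states instead that neither cytokine given alone makes T cells transcribe Il9. In all, 5 of the 9 genes of the list with a member and 1 RPKM or more in both groups were called higher (Il9, Irf4, Stat5a, Stat5b and Ccr4) and 0 lower, beside 10 higher and 2 lower of 24 over the list. Nfil3, E2f8, Il2ra and Tnfrsf4 had a member and were not called, and Il1rl1, with 2 members, was under the filter.

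Of the IL-4 response genes, Socs1 and Gfi1 had members. Socs1, a feedback inhibitor of cytokine signaling, had 2 in introns of Clec16a, 45.4 and 54.3 kb away (−log10 p 17.3 and 7.18). It stood at 137 and 135 RPKM in control, 137 and 130 with TGF-β, 250 and 230 with IL-4 and 262 and 252 with both (log2 fold change 0.91 ± 0.07, limma adjusted p = 1.1e-05), high in both cultures with IL-4. Gfi1, a transcriptional repressor, had a member 13.2 kb before its start and stood at 3.61 and 3.84 RPKM in control, 0.329 and 0.772 with TGF-β, 6.37 and 7.02 with IL-4 and 1.75 and 1.501 with both (log2 fold change −0.85 ± 0.10, limma adjusted p = 0.00028). It was thus above control with IL-4 alone and below it in both cultures with TGF-β.

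The list of T cell activation genes also holds genes of resting T cells, such as S1pr1, Klf2, Il7r, Tcf7 and Lef1. Of 16 with a member, all tested, 4 were called higher (Jun, Cd44, S1pr1 and Klf2) and 3 lower (Il2, Eomes and Cd28), beside 7 higher and 8 lower of 37 tested over the list. S1pr1, the receptor that guides T cells out of lymph nodes, had 3 members within 100 kb and rose from 2.24 and 3.26 RPKM in control to 10.1 and 14.9 in TGF-β plus IL-4 (log2 fold change 1.84 ± 0.18, limma adjusted p = 6.4e-05). The window of the member 85.5 kb before S1pr1 holds tandem runs, with 10 copies of the SMAD letters. Klf2, a factor that drives S1pr1, had a member in an intron of Eps15l1 and rose from 2.35 and 2.74 RPKM to 6.18 and 10.1 (log2 fold change 1.34 ± 0.18, limma adjusted p = 0.00042). Eomes, a T-box factor of cytotoxic cells, had a member 88.5 kb before its start of low rank (99.9%) and fell from 4.49 and 5.63 RPKM to 1.02 and 1.31 (log2 fold change −1.48 ± 0.12, limma adjusted p = 3.0e-05). Il2 stood at 76.6 and 64.9 RPKM in control and at 40.3 and 34.5 in TGF-β plus IL-4. Bach2, Nfkb1, Tcf7, Lef1 and Satb1, each with 2 or more members, were not called.

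The 5 genes nearest to the most members had low RNA, apart from Irf2bp2. They were 4933406K04Rik (8 members, 147 to 505 kb away), Xylt1 and Haao (6 each), and Afap1l2 and Irf2bp2 (5 each). Over the 8 identified WT libraries the highest value was 0.0258 RPKM for 4933406K04Rik, 0.142 for Xylt1, 0.682 for Haao and 0.0223 for Afap1l2. Irf2bp2 stood at 4.44 and 4.62 RPKM in control and 5.92 and 6.23 in TGF-β plus IL-4 and was not called. All 5 members nearest to Afap1l2 held CAGACA, and 4 of them lay inside Ablim1.

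Of 940 nearest genes within 50 kb with 1 RPKM or more in both groups, 134 (14.3%) were called higher and 29 (3.09%) lower, beside 5.87% and 3.29% of all such genes. Among all called genes within 50 kb, the largest rises were those of Aqp3, Fbxo2, Nt5e, Itgae and Tgfbr1, of which Fbxo2 and Itgae passed the filter through TGF-β plus IL-4 alone. Aqp3, a channel for water and glycerol, had a member 24.6 kb from its start with 2 STAT6-type matches and CAGACA, and stood at 2.60 and 2.43 RPKM in control, 96.5 and 98.5 with TGF-β, 2.55 and 1.72 with IL-4 and 88.6 and 92.1 with both. Its RNA was thus high with TGF-β and not with IL-4 alone. The largest falls were those of Nrn1, Arc, Slain2, Slc25a33 and Rras2. Rras2, a RAS-related GTPase, had 3 members and fell from 29.6 and 41.3 RPKM to 14.9 and 17.1, so a member near a gene also occurred where RNA was lower.

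Over all cultures, the highest value in the 12 columns headed KO was under that in the 12 headed WT for 17 of the 19 genes of the TGF-β list with a member within 100 kb, 8 of 10 of the Th9 and Th2 list, 1 of 2 of the IL-4 response list and 9 of 16 of the T cell activation list, beside 54.6% of the 1231 nearest genes and 48.3% of the 9825 genes tested. Among the widest differences, the highest value in columns headed KO was 0.358 RPKM for Itgae, 2.31 for Nt5e, 3.39 for Ski, 2.34 for Skil and 0.983 for Pmepa1, against highest values of 8.76, 21.2, 12.5, 12.2 and 7.57 in those headed WT. The reverse held for Smad2 (8.22 against 7.83) and Ctla4 (17.9 against 14.1), and for 7 genes of the T cell activation list. By the median of the 12 columns, the KO value was the lower for 17, 8, 1 and 8 genes of these lists, beside 52.2% of the nearest genes and 46.8% of the genes tested, and S1pr1, Lef1, Il2, Eomes and Satb1 changed sides. Neither count was made over the whole lists, so they do not set genes with a member apart from the rest of their list. Tgfbr1, the gene targeted by the deletion, ran from 2.32 to 5.18 RPKM in columns headed KO. In those headed WT it ran from 3.02 to 20.7, so the ranges overlap. Reads from exons outside the floxed part remain after such a deletion, and RPKM over the whole gene does not check it. Apart from the WT against KO comparison given earlier, genotype was not compared by culture, since the headings of the KO columns could not be checked.

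The cells carried T cell RNA throughout. Cd3e stood between 213 and 360 RPKM and Cd4 between 75.6 and 122 in all 24 columns. Cd3e was called higher in TGF-β plus IL-4 (log2 fold change 0.59 ± 0.07, limma adjusted p = 0.00027), close to the fold threshold, and not without replicate 3 of TGF-β plus IL-4 (0.54) or of control (0.55). Small amounts of other markers differed between the identified libraries. The 3 red cell markers summed to 10.0 RPKM in control replicate 1 and 0 in control replicate 3, with at most 0.0904 in the other identified libraries. Most of it was Hba-a1, which was listed at 0 in 21 of the 24 columns and reached 21.9 RPKM in another column. The 4 B cell markers summed to 20.1 and 14.4 RPKM in control, 10.9 and 13.1 with TGF-β, 23.7 and 12.3 with IL-4 and 33.3 and 24.8 with both, with Cd79b the most abundant and 1 of the 4 called (log2 fold change 1.30 ± 0.16, limma adjusted p = 0.00030). The 2 CD8 T cell markers summed to 26.3 and 26.9 RPKM in control, 17.3 and 16.6 with TGF-β, 36.3 and 29.9 with IL-4 and 25.3 and 26.6 with both, and the 2 NK cell markers to 2.30 and 2.11, 0.653 and 0.558, 4.17 and 3.45, and 1.51 and 2.03 in the same order, with 0 of them called. The 5 myeloid markers summed to 4.58 and 3.53 RPKM in control, 18.4 and 11.9 with TGF-β, 4.37 and 2.71 with IL-4 and 16.7 and 7.10 with both, most of it Lyz2, the 1 marker that passed the filter, which was called higher with limma in the full comparison and not without either control library. The part of such cells in the nearest-gene counts was not tested, nor was their part in the DNase libraries, whose labels the peak lists offer no way to check.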

How the data were processed

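The authors aligned reads with Bowtie2 to mm9 and called DNase-seq peaks with MACS2, per the labels, once per library. The deposited lists give each peak's fold enrichment ratio and −log10 p and q. The authors deposited RNA-seq as RPKM per gene (24 columns, all used). Overlaps used bedtools 2.31.1. Positions and sequences came from NCBIM37 (mm9) with its GENCODE annotation; 86.2% of RPKM genes matched by symbol, and the nearest gene start was sought among these. Tag pileups were solved from fold and −log10 p, and a whole pileup within 0.001 fitted 100% of peaks. Relative RNA depth came from the most frequent ratio of low values.

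Genes that averaged 1 RPKM or more were tested with limma 3.58.1 (R 4.3.3, trend) on log2(RPKM + 1), a scale that understates changes of low genes, with Benjamini-Hochberg adjustment over all genes tested. The script was tested on simulated data. Groups as headed followed the column headings, and identified groups the matched libraries. The read counts listed by library number served only to match columns to libraries. Fits of TGF-β alone and of IL-4 alone against control were also run and are not used.

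Named genes were those nearest to the 10 strongest members, genes of 4 lists (Th9 and Th2, TGF-β, IL-4 response, T cell activation) nearest to a member within 100 kb, the 5 genes nearest to the most members (ties by summed −log10 p), and the 5 largest rises and falls among called nearest genes within 50 kb. The rule on lists also takes in Tgfb3 and Ikzf2, which were under the filter, and Junb, Rel and Pdcd1, which were not called. They are not described above. Sec1, Dbp, Car11, Fut2, Rpl18, Sphk2, Sult2b1 and Fam169b, beside strong members, and the marker genes are named in addition. The sequence of 1 region is not reported here. The members and lists were chosen with earlier results of these data known.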

Additional observations from a re-analysis of the deposited data

How the results depend on the processing

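Counting summits more than 100 bp apart as separate gave 4119 regions, and a −log10 q of at least 5 in the WT TGF-β plus IL-4 list 1382. The 4 other overlap and threshold rules stayed within 1.5 times of 2418. The promoter share was 19.9% with 2500 bp on either side of a start, 12.3% with the start of any transcript, 6.08% for members of −log10 q of at least 5 and 5.08% for those over 500 bp from other lists. Within 50 bp of the summit, STAT6-type, SMAD and AP-1 letters stood in 5.83%, 15.3% and 3.64% of members, against 2.91%, 9.56% and 6.40% of the list. At −log10 q of at least 5, STAT6-type and SMAD letters stood in 13.4% and 29.5%. Over all 2418 members, SMAD letters outside tandem runs stood in 24.6%. The transcript, 500 bp, letter threshold and tandem settings, the settings tried within the identified libraries, the replicate block for WT against KO and the comparison of identified WT libraries with KO columns were chosen after seeing the data.

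With limma, TGF-β plus IL-4 against control called 0 genes as headed, also without each replicate in turn (0 to 0), with the replicate block (0), and at an adjusted p under 0.05. It called 3 with the columns headed replicates 1 and 3, and 984 in the identified libraries, or 1010 there with the replicate block. Nearest genes called higher numbered 0 (0 to 0), 2, 186 and 188 under the same settings. In the identified libraries, the calls numbered 296 with no filter, 639 with a mean RPKM of at least 5, and 867 to 1091 without 1 library. The nearest genes called higher numbered 75, 112 and 167 to 202, and 164 with only genes of at least 1 RPKM in both groups. The labels share replicate numbers across groups but do not say what a number marks, so no pairing is assumed. Same-numbered deviations correlated at 0.0916 in the identified libraries, at −0.222, −0.738 and −0.150 in the columns as headed, where no replicate correlated best with its own number, and at 0.393, 0.265 and 0.0511 for WT and KO, where replicates 1 and 2 did. With 1 library left in a group, limma assumes that it varies like the other group.

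WT against KO called 0 genes as headed, 0 with the replicate block, 3 with a pseudocount of 0.1, 2 with a mean RPKM of at least 5, 22 at an adjusted p under 0.05, and 0 to 326 without 1 replicate, 326 without the column headed WT TGF-β plus IL-4 replicate 2. Against the columns headed KO, the 2 identified WT libraries gave 887 calls, and 24 and 26 with either left out. No gene is named from this comparison, since the headings of the KO columns could not be checked. The cause of these differences was not tested. Every gene whose log2 fold change is printed stayed called without each identified library it could be tested without, except Cd3e and Lyz2. Cd3e lost its call without replicate 3 of either group (0.537 and 0.551). Lyz2 had a log2 fold change of 1.23 in the identified libraries, the reverse of that as headed. It lost its call without either control library (1.39 and 1.07). The Lyz2 value moved most with the TGF-β plus IL-4 libraries, to 0.647 without replicate 1 and 1.81 without replicate 3.

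Depth is known only relative to other libraries, and each DNase list is 1 library, so no count of regions has an error.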
